A study of Mus musculus with 36 samples.

Results

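Nppa, Nppb, Myh7, Acta1, Actc1, Ankrd1, Rcan1, Myl7 and Myl4 are natriuretic peptide and fetal heart genes. They were taken by symbol, and each of the 9 had 1 row among the 23352 gene rows of both deposited tables. RNA from the apex of mouse hearts lacking Klf15, a zinc-finger transcription factor, was compared with RNA from control hearts around the day. All mice were C57BL/6J males (strain label C57BL/6) of 11 to 12 weeks, housed with 12 h of light and 12 h of dark. The first genotype is labelled KLF15 KO and called cK15, and the other is labelled control and carries alpha-MHC cre, a recombinase under a promoter of heart muscle cells. How Klf15 was deleted, and whether cK15 mice carry the same cre, is not stated by the labels. Hearts were collected every 4 h, at 12 am, 4 am and 8 am and again at 12 pm, 4 pm and 8 pm. There were 3 libraries for each genotype and time, 18 for each genotype and 36 in all. The tissue is bulk, so fewer cells of a type and less RNA per cell cannot be told apart in any value below.

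Atrial and brain natriuretic peptide, from Nppa and Nppb, are hormones that heart muscle releases when stretched, and they act through guanylyl cyclase receptors to relax vessels and raise salt excretion. In rodent ventricle, Nppa, the slow myosin heavy chain Myh7, skeletal actin Acta1 and the atrial light chains Myl7 and Myl4 are expressed during development, fall after birth and can return under load. Ankrd1 encodes a stretch-responsive nuclear and sarcomeric ankyrin repeat protein, Rcan1 a calcineurin inhibitor induced by calcineurin itself, and Actc1 the main actin of the heart sarcomere.

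The windows before the natriuretic peptide genes, the actin pair and Rcan1 are shown because known heart and clock factors read short motifs of this kind. Each window holds 300 bases from RefSeq (GRCm38.p6), 250 before and 50 after the annotated start, written 5′ to 3′ on the gene's strand. Capitals mark a CArG box (the serum response factor motif), CATTCC (TEAD factors), GATAA (GATA factors) or CACGTG (clock E-box), on either strand.
Nppa, chr4:148000472-148000771, plus strand: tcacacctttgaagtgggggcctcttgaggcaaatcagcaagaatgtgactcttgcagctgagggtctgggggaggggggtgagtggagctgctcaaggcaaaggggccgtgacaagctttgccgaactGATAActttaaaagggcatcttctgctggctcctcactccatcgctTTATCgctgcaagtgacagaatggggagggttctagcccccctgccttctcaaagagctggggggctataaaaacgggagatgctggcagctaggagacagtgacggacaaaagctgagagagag
Nppb, chr4:147985650-147985949, plus strand: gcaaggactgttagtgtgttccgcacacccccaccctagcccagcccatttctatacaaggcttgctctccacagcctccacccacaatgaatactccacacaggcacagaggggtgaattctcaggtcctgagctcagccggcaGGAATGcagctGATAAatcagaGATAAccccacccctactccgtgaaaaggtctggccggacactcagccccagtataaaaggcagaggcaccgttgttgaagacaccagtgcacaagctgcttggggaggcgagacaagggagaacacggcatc
Acta1, chr8:123894726-123895025, minus strand: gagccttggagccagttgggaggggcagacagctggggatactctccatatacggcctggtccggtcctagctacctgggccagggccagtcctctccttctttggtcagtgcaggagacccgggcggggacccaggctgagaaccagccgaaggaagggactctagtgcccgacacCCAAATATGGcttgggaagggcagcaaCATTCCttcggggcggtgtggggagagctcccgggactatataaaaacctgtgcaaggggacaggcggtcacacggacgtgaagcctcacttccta
Actc1, chr2:114052826-114053125, minus strand: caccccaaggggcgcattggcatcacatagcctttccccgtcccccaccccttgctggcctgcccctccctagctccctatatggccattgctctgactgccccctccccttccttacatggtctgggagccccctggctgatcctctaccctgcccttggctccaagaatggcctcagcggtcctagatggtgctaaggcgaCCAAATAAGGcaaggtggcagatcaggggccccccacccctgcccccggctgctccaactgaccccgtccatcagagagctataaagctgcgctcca
Rcan1, upstream start, chr16:92466120-92466419, minus strand: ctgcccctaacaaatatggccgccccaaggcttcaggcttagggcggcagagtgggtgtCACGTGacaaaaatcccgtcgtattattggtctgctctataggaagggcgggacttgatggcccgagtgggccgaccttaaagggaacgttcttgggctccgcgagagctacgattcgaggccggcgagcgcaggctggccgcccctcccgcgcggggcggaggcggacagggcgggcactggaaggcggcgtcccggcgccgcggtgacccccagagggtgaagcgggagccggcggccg
Rcan1, downstream start, chr16:92400029-92400328, minus strand: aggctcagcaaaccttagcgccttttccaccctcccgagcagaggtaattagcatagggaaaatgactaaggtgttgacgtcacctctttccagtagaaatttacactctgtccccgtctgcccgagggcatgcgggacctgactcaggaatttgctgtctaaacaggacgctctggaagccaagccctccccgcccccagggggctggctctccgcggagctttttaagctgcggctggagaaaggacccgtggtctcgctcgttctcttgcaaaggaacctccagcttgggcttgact

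Nppa held GATAA 121 and 75 bases before its start, on opposite strands. Nppb held it 94 and 83 bases before, with CATTCC at 105. CArG boxes lay 73 bases before Acta1, 47 before Actc1 and 61 before Myl7, so 3 of the 9 genes had one, against 1.63% of the 32851 RefSeq windows of that length. CATTCC was in a window of 5 of 9 genes (14.7% of all windows) and GATAA in 4 of 9 (25.4%). CACGTG was found in 1 gene (7.15%), 191 bases before the upstream start of Rcan1. CACCC, a short form of the Kruppel-like factor motif, was in 8 of 9 genes, but also in 57.5% of all windows, and TATAAA in 4 of 9 (13.6%). The CACCC of the Acta1 window overlaps its CArG box. These are matches of letters and no measure of binding. Distances run from the RefSeq start, and the GENCODE M21 annotation starts Nppb and Actc1 further upstream. In the Actc1 window TATAAA lies 34 bases after the RefSeq start. The FPKM of a gene sums over its starts, so transcripts from the 2 starts of Rcan1 cannot be told apart.

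In the GENCODE M21 annotation of GRCm38, Nppb (chr4:147985788-147987205) and Nppa (chr4:148000722-148002079) lie in the same orientation, 13516 bases apart. Myh7 (chr14:54970684-54994626) lies 3756 bases from Myh6, the adult fast myosin gene. The antisense gene Gm13054 covers 43.9% of the 100-base windows of the Nppa transcript. For Myh7, 11.2% of windows recur in Myh6 and 2.38% in the antisense gene Mhrt. The labels do not say whether counting used strand, so reads from those antisense partners may be in the values. The other 7 genes had no 100-base window in another annotated transcript.

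The deposited values are FPKM, fragments scaled to transcript length and library total, and they summed to between 534039 and 691583 per library. In 12 libraries the 10 most abundant genes took 16.1% to 17.7% of that sum, against 21.7% to 25.03% in the other 24, with no value between. The 12 are replicate 1 of cK15 and replicate 2 of control at the 5 times other than 8 pm, and replicate 4 of both genotypes at 8 pm. Read steps in low values were shared by the 24 (relative depth 0.857 to 1.40) and not by the 12, so absolute depth is unknown and results are also given for each set. Klf15 was 1.45 ± 0.727 FPKM in control (SD, n = 18) and 0.0636 ± 0.114 in cK15, where 13 libraries were listed at 0, and at each time every cK15 library was below every control library. The ventricular light chain Myl2 was the most abundant gene in the tables. The labels do not say whether replicates are different animals. The p-values below therefore compare the genotypes with the spread between libraries, which may be technical.

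The 9 genes spanned more than 3 orders of magnitude of FPKM, a per-length level. Actc1 had a mean of 7218 ± 723 FPKM (SD, n = 36), rank 7 of all genes, next to the ventricular light chain Myl3, which it exceeded in 18 of 36 libraries. Ankrd1 followed with 1344 ± 434 and Nppb with 377 ± 163. Acta1 had a mean of 166 ± 74.8 and Nppa of 127 ± 67.0. Myh7 was at 27.8 ± 12.9 and Rcan1 at 13.4 ± 4.79. The atrial chains were lowest, Myl7 at 5.37 ± 6.88 and Myl4 at 3.69 ± 4.42. The order was the same in all 36 libraries between Ankrd1 and Nppb and between Nppa and Myh7. It was less fixed between neighbours elsewhere: Nppb exceeded Acta1 in 32 libraries, Acta1 exceeded Nppa in 28, Myh7 exceeded Rcan1 in 33, Rcan1 exceeded Myl7 in 35 and Myl7 exceeded Myl4 in 26. No library listed any of the 9 at 0.

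**Figure D1:**
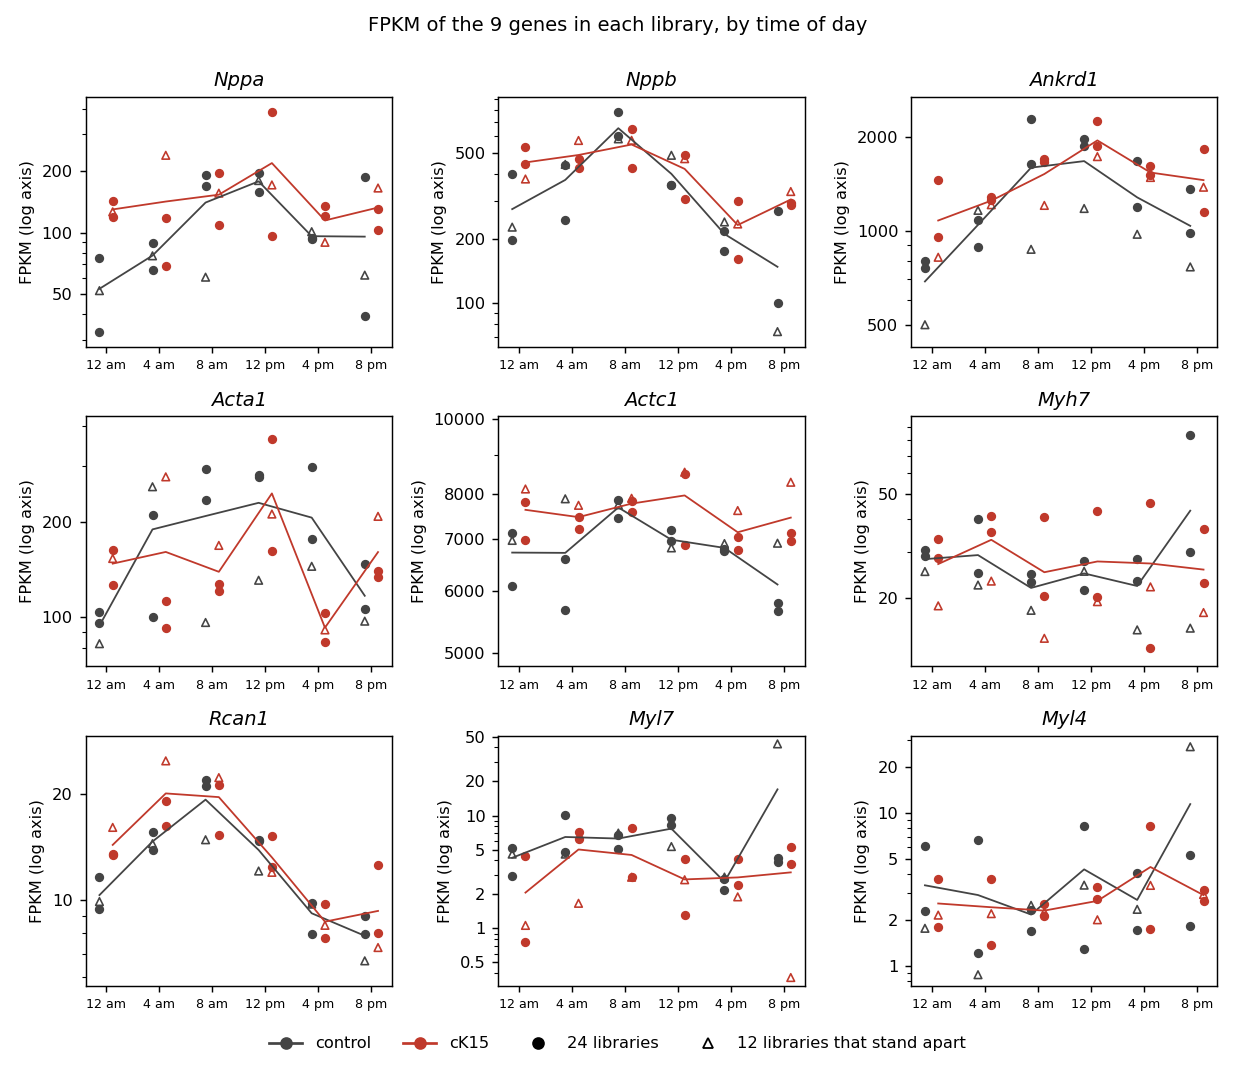
FPKM (log axis) of the 9 genes in each of the 36 libraries by clock time, with control in grey, cK15 in red, lines through the means of 3 libraries and triangles for the 12 libraries that stand apart. Nppb and Rcan1 peak in the morning in both genotypes, Nppb falls to 73.8 FPKM in 1 control library at 8 pm, and 1 control library of that time has Myl7 at 43.0.

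Nppb, the brain natriuretic peptide gene, followed the clock in both genotypes and was higher in cK15 at 8 pm. In control hearts it was 226, 197 and 401 FPKM at 12 am (replicates 2, 3 and 4), and 444, 243 and 440 at 4 am. At 8 am the control libraries were at 584, 605 and 776, and at 12 pm at 490, 357 and 357. At 4 pm they read 239, 175 and 217, and at 8 pm 99.9, 270 and 73.8. The control libraries of 8 am were thus all above every control library of any other time. In cK15 hearts (replicates 1, 3 and 4) the values were 380, 447 and 534 at 12 am, and 574, 428 and 472 at 4 am. At 8 am they were 575, 648 and 426, and at 12 pm 472, 490 and 308. At 4 pm they were 234, 161 and 299, and at 8 pm 295, 287 and 332. Genotypes overlapped at 5 times, and at 8 pm all 3 cK15 libraries were above all 3 control libraries. The log2 difference at 8 pm was 1.27 (SE 0.32; limma adjusted p = 0.0463), the 1 call among the 9 genes at that time, where 1.13% of the 10600 genes tested were called. That call ended when any of 26 single libraries was left out (limma adjusted p from 0.0508 to 0.392). Most of the 26 were libraries of other times, which enter through the shared spread only. Without 1 of those the difference stayed at 1.27 (limma adjusted p from 0.0508 to 0.0563). Without 1 of the 8 pm libraries that ended the call, it ran from 0.88 to 1.31 (limma adjusted p from 0.123 to 0.392). The call also ended in the 24 libraries alone (log2 0.82; limma adjusted p = 0.623) and with a fixed replicate block (limma adjusted p = 0.0937).

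Averaged over the 6 times, Nppb was 0.40 higher in cK15 on the log2 scale (SE 0.13; limma adjusted p = 0.05002, just over the threshold). The cK15 libraries had a mean of 409 ± 131 FPKM and the control libraries one of 344 ± 187 (SD, n = 18 each). The difference was 0.33 in the 24 libraries and 0.53 in the 12.

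Nppa, the atrial natriuretic peptide gene, was at its lowest in control hearts at midnight. The control libraries of 12 am were at 52.2, 32.8 and 74.9 FPKM (replicates 2, 3 and 4) and the cK15 libraries at 126, 143 and 120 (replicates 1, 3 and 4). All cK15 libraries of that time lay above all control libraries, and the log2 difference was 1.34 (SE 0.47; limma adjusted p = 0.274). At 12 pm the control libraries read 179, 158 and 195 and the cK15 libraries 170, 387 and 96.2. The groups overlapped there and at the other 4 times, and the 387 of cK15 replicate 3 was the highest Nppa value of the 36. Control means ran from 53.3 at 12 am to 177 at 12 pm, and cK15 means from 115 at 4 pm to 218 at 12 pm. The averaged log2 difference was 0.56 (SE 0.19; limma adjusted p = 0.0589), with 148 ± 71.7 FPKM in cK15 and 107 ± 56.4 in control. It was 0.39 in the 24 libraries and 0.89 in the 12.

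Ankrd1, the stretch-responsive ankyrin repeat gene, had its cK15 libraries above its control libraries at 12 am and 4 am, but no difference passed the test. At 12 am the cK15 libraries were at 824, 1459 and 959 FPKM and the control libraries at 501, 803 and 763. At 4 am they were at 1214, 1255 and 1284 against 1164, 890 and 1084. The genotypes did not overlap at these 2 times and overlapped at the other 4. The log2 differences were 0.64 at 12 am and 0.27 at 4 am, neither called (limma adjusted p = 0.541 and 0.997). The averaged difference was 0.33 (SE 0.11; limma adjusted p = 0.0562). It passed the threshold within the 12 libraries (0.54; limma adjusted p = 0.00309) and did not within the 24 (0.22; limma adjusted p = 0.147).

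Actc1, the main sarcomeric actin of the heart, rose in cK15 by a small amount. Its FPKM was 7585 ± 561 in cK15 (lowest 6780, median 7610, highest 8546) and 6851 ± 691 in control (5657, 6920 and 7898; SD, n = 18 each). The ranges overlapped widely, and the averaged log2 difference was 0.15 (SE 0.042; limma adjusted p = 0.0177). It was 0.15 in the 24 libraries (limma adjusted p = 0.0199) and 0.16 in the 12 (limma adjusted p = 0.0913). At 8 pm the cK15 libraries read 7136, 6977 and 8295 and the control libraries 5796, 5657 and 6923, with no overlap. The averaged call held with every single library left out, and ended without replicate 1 of cK15 at all times (0.12; limma adjusted p = 0.102), without replicate 3 of control (0.11; limma adjusted p = 0.188), with replicate series as a random block (limma adjusted p = 0.261) and under quantile normalization (limma adjusted p = 0.399).

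Acta1, the skeletal actin that stands in for Actc1 in fetal and loaded ventricle, had no averaged difference that passed the test. It was 158 ± 70.9 FPKM in cK15 and 174 ± 79.7 in control (log2 difference -0.11, SE 0.16; limma adjusted p = 0.777). The sets went opposite ways: in the 24 libraries it was 144 in cK15 and 194 in control, and in the 12 it was 185 and 135 (log2 -0.40 and 0.48; limma adjusted p = 0.0780 and 0.331). At 12 am the cK15 libraries were at 153, 126 and 164 and the control libraries at 82.7, 104 and 96.2, all cK15 above. At 4 pm they were at 91.4, 83.7 and 104 against 145, 177 and 297, all cK15 below. Neither time passed the test over all genes (log2 0.64 and -1.08; limma adjusted p = 0.859 and 0.293). Acta1 had a median of 1.94% of the Actc1 level in the same library. The log2 ratio of the pair differed by -0.26 between genotypes (permutation p = 0.155, two-sided, genotype labels permuted within time; 0.311 adjusted over 4 ratios). In the 24 libraries alone that ratio was lower in cK15 and passed the permutation test. In the 12 the sign was the opposite, with both values given further below. Among 8 skeletal muscle markers, whose summed FPKM was 17.1 to 45.2 in cK15 and 25.97 to 76.2 in control, 4 were abundant enough to test and 1 fell, the fast light chain gene Myl1 (log2 -1.15; limma adjusted p = 8.68e-09). The fast myosins Myh1, Myh2 and Myh4 were listed at 0 in 29, 26 and 23 of 36 libraries, and the part of such RNA in the Acta1 values was not tested.

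Myh7, the slow myosin heavy chain that dominates the fetal mouse ventricle, did not differ past the test. It was 27.5 ± 10.7 FPKM in cK15 (lowest 12.8, median 22.9, highest 46.2) and 28.1 ± 15.1 in control (15.03, 24.97 and 83.8; SD, n = 18 each). The groups overlapped at all 6 times, and the averaged log2 difference was -0.016 (SE 0.18; limma adjusted p = 0.975). Myh7 stood at a median of 0.449% of Myh6 within a library, with a range from 0.201% to 1.38%. The log2 ratio of the pair differed by -0.066 between genotypes (permutation p = 0.697; adjusted p = 0.774 over 4 ratios). Given the windows that recur in Myh6, some reads counted for Myh7 may come from that far more abundant gene. Myh7 was also lower in the 12 libraries that stand apart in both genotypes, with means of 19.1 in cK15 and 20.1 in control against 31.8 and 32.1 in the 24. Myh6 was lower there as well, and the mean log2 ratio of Myh7 to Myh6 was -7.74 in the 24 and -7.80 in the 12.

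Rcan1, the calcineurin inhibitor, changed more with the hour than with genotype. In control hearts its libraries were at 9.87, 11.6 and 9.41 FPKM at 12 am (replicates 2, 3 and 4), and at 14.5, 13.9 and 15.6 at 4 am. They reached 14.8, 21.95 and 21.2 at 8 am and fell to 7.996, 8.96 and 6.68 at 8 pm. In cK15 hearts (replicates 1, 3 and 4) the values were 16.1, 13.5 and 13.4 at 12 am. At 4 am they were 24.95, 19.2 and 16.3, at 8 am 22.3, 21.3 and 15.3, and at 8 pm 12.5, 8.03 and 7.29. The cK15 libraries lay above all control libraries at 12 am and 4 am, and the groups overlapped from 8 am to 8 pm. The log2 differences at those 2 times were 0.44 and 0.41, neither called (limma adjusted p = 0.427 and 0.487), and the averaged difference was 0.15 (SE 0.072; limma adjusted p = 0.188). It was 0.075 in the 24 libraries and 0.31 in the 12. With a fixed replicate block, where it rests on replicates 3 and 4, it was 0.035. It passed without replicate 4 of cK15 at all times (0.25; limma adjusted p = 0.0358).

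Myl7, the atrial regulatory light chain, fell in cK15 on average, and Myl4, the atrial essential light chain, did not pass the test. Myl7 was 3.37 ± 2.16 FPKM in cK15 (lowest 0.368, median 2.86, highest 7.71) and 7.37 ± 9.18 in control (2.20, 4.93 and 43.0; SD, n = 18 each). The averaged log2 difference was -0.77 (SE 0.25; limma adjusted p = 0.0403). At 12 pm the cK15 libraries were at 2.70, 4.14 and 1.32 and the control libraries at 5.31, 8.16 and 9.49, with all cK15 below, and the groups overlapped at the other 5 times. The value of 43.0 came from control replicate 4 of 8 pm, and no other library passed 10.02. Without that library the averaged difference was -0.60 (limma adjusted p = 0.0482). The call ended when any of 18 other single libraries was left out (limma adjusted p from 0.0542 to 0.0697). It also ended with a fixed replicate block, which rests on replicates 3 and 4 (limma adjusted p = 0.130). The same held in the 24 libraries (-0.35; limma adjusted p = 0.303) and in the 12 (-1.62; limma adjusted p = 0.240).

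As a ratio to the ventricular chain Myl2 in the same library, Myl7 was 1.22 lower in cK15 on the log2 scale (permutation p = 0.00021, two-sided; adjusted p = 0.00084 over 4 ratios). Myl7 alone, with a pseudocount of 0.1, differed by -1.01 (limma adjusted p = 0.0363). The ratio also carries any change of Myl2. In the averaged comparison Myl2 itself was tested and not called, and its part in the ratio difference was not tested. The ratio difference was -0.68 in the 24 libraries (adjusted permutation p = 0.105), -2.30 in the 12 and -1.26 with replicates 3 and 4 paired across genotypes (adjusted permutation p = 0.101). The 12 hold both the highest and the lowest Myl7 value of the 36, 43.0 in control and 0.368 in cK15, set against each other at 8 pm. The median of Myl7 was 0.0081% of Myl2, and Myl7 ranked 6584 among all genes by FPKM. Myl4 was 2.89 ± 1.49 FPKM in cK15 and 4.49 ± 6.05 in control, where the same library held 27.2 against at most 8.21 elsewhere. Its averaged log2 difference was -0.17 (SE 0.24; limma adjusted p = 0.757), and its ratio to Myl3 differed by -0.10 (permutation p = 0.774). Of 8 other atrial markers the sum was 5.51 to 12.5 FPKM in cK15 and 6.88 to 13.4 in control, and 1, the channel gene Kcnj3, was abundant enough to test and was not called. The calcium pump regulator Sln had a value of 0 in 35 of the libraries, and the growth factor gene Bmp10 did in 34. In the library with Myl7 at 43.0 both were listed at 0, as in nearly all others. Of the other 6 markers, Dkk3 was at 2.46 against at most 1.16 elsewhere, Nr2f2 ranked 2 of 36 (1.02, median of the others 0.485) and Mybphl ranked 3 (1.07 and 0.279). Kcnj3 ranked 14 there with 8.53, Gja5 22 with 0.145 and Nr2f1 31 with 0.0867. The part of atrial tissue in the Myl7 and Myl4 values was not tested.

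Set side by side, 2 of the 9 genes were called in the averaged comparison, Actc1 higher and Myl7 lower, against 11.2% of all 10600 genes. Of all genes, 430 were higher (4.06%) and 762 lower (7.19%). After median-ratio rescaling the split was 606 to 638, and after quantile normalization 635 to 605. The members called changed with the scaling. Median-ratio rescaling called 4, Actc1, Myl7, Nppa and Nppb (limma adjusted p = 0.00143, 0.0471, 0.0471 and 0.0343). Quantile normalization called 1, Ankrd1 (limma adjusted p = 0.0216), and lost Actc1 and Myl7 (limma adjusted p = 0.399 and 0.0577). The median log2 difference of the 9 was 0.15, against -0.012 over all genes tested. Of the 7 not called, Nppa, Nppb, Ankrd1 and Rcan1 lay above 0 and Acta1, Myh7 and Myl4 below, except that Myh7 was at 0.0075 under median-ratio rescaling.

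**Figure D2:**
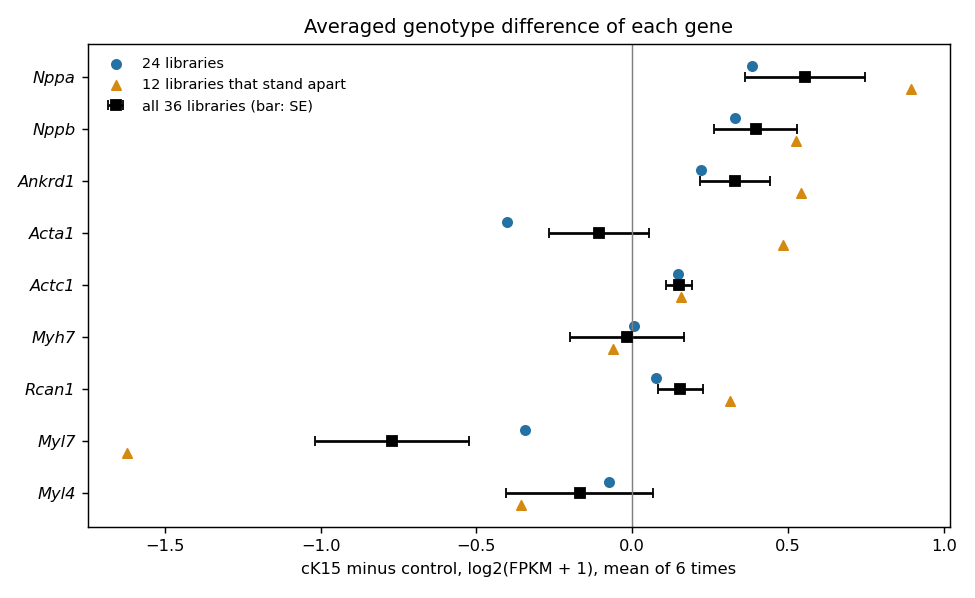
Averaged log2 difference, cK15 minus control, of log2(FPKM + 1) for each gene, with squares for all 36 libraries (bars are the SE), circles for the 24 and triangles for the 12 libraries that stand apart. Nppa, Nppb, Ankrd1, Actc1 and Rcan1 lie to the right of 0 in every set, Myl7 and Myl4 to the left, and Acta1 has opposite signs in the sets (-0.40 and 0.48).

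By time of day, the non-overlapping groups fell mostly between 8 pm and 4 am. At 12 am, 4 of 9 genes (Nppa, Acta1, Ankrd1 and Rcan1) had every cK15 library above every control library, against 3.5% of all genes. At 4 am this held for Ankrd1 and Rcan1 (4.21%), and at 8 pm for Nppb and Actc1 (4.74%). All cK15 libraries were below all control libraries for Myl7 at 12 pm (6.29%) and Acta1 at 4 pm (7.41%). In every other case no member qualified. Of all genes, 3.91% lay above at 8 am, 4.18% at 12 pm and 4.46% at 4 pm, and 7.76% lay below at 12 am, 6.96% at 4 am, 6.98% at 8 am and 6.23% at 8 pm. The 9 genes share the same libraries, so these counts are not independent. With limma, 0 of the 9 were called at 12 am (1.22% of all genes called), and at 8 pm 1 was, Nppb (1.13%). None was called at 4 am (1.13%), 8 am (1.07%), 12 pm (0.755%) or 4 pm (1.31%).

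With samples every 4 h, a 24 h curve was fitted within each genotype. In control, 4 of 9 genes were called, Nppa, Nppb, Ankrd1 and Rcan1, against 2.8% of all genes. In cK15, Nppb and Rcan1 were called, against 1.08%. Amplitudes, the height of the peak over the curve's mean, had a median of 0.57 in control and 0.24 in cK15 over the 9 genes, and of 0.092 and 0.084 over all genes, on the log2 scale. A fitted amplitude is never below 0 and grows with the spread between libraries, so these medians do not measure rhythm alone. They fell on genes that were not called, Acta1 in control and Myl4 in cK15 (limma adjusted p = 0.147 and 0.857).

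Rcan1 had an amplitude of 0.57 in control (SE 0.057; limma adjusted p = 9.44e-06) and 0.62 in cK15 (SE 0.073; limma adjusted p = 0.000126). Its fitted peak was at clock hour 7.54 in control (SE 0.384 h) and 5.67 in cK15 (SE 0.448 h). Nppb had an amplitude of 1.02 in control (SE 0.15; limma adjusted p = 0.00102) with a peak at 7.79 (SE 0.562 h), and of 0.57 in cK15 (SE 0.097; limma adjusted p = 0.00970) with a peak at 5.42 (SE 0.654 h). Both genes thus had their fitted peak earlier in cK15. Nppa and Ankrd1 peaked near midday in control, at 11.5 (SE 0.877 h) and 11.4 (SE 0.822 h). Their amplitudes there were 0.77 (SE 0.18; limma adjusted p = 0.0488) and 0.57 (SE 0.12; limma adjusted p = 0.0307). In cK15 the amplitudes were 0.20 for Nppa (limma adjusted p = 0.997) and 0.36 for Ankrd1 (limma adjusted p = 0.0540). With a fixed replicate block, Nppa lost its call in control (limma adjusted p = 0.0670) and Ankrd1 gained one in cK15 (limma adjusted p = 0.00269).

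The difference in rhythm between the genotypes was tested on its own, and limma called 0 of the 10600 genes, with 291 at an unadjusted p under 0.05. Nppb (unadjusted p = 0.00639) and Rcan1 (0.0133) were among the latter, with limma adjusted p = 1.00 for each, so neither their earlier peak nor the smaller amplitude of Nppb in cK15 passed. A rhythm called in 1 genotype only, as for Nppa and Ankrd1, is therefore not shown to differ between them. Rcan1 was called in both genotypes under all 51 alternatives. In the 24 libraries alone it was called in both (limma adjusted p = 0.000137 and 0.0191), Ankrd1 and Acta1 were called in control (limma adjusted p = 0.00656 and 0.0108), and Nppb was called in neither (limma adjusted p = 0.122 in control and 0.183 in cK15). The call of Nppa in control ended when any of 16 single libraries was left out (limma adjusted p from 0.0517 to 0.130), and that of Ankrd1 when any of 7 was (0.0525 to 0.0881).

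**Figure D3:**
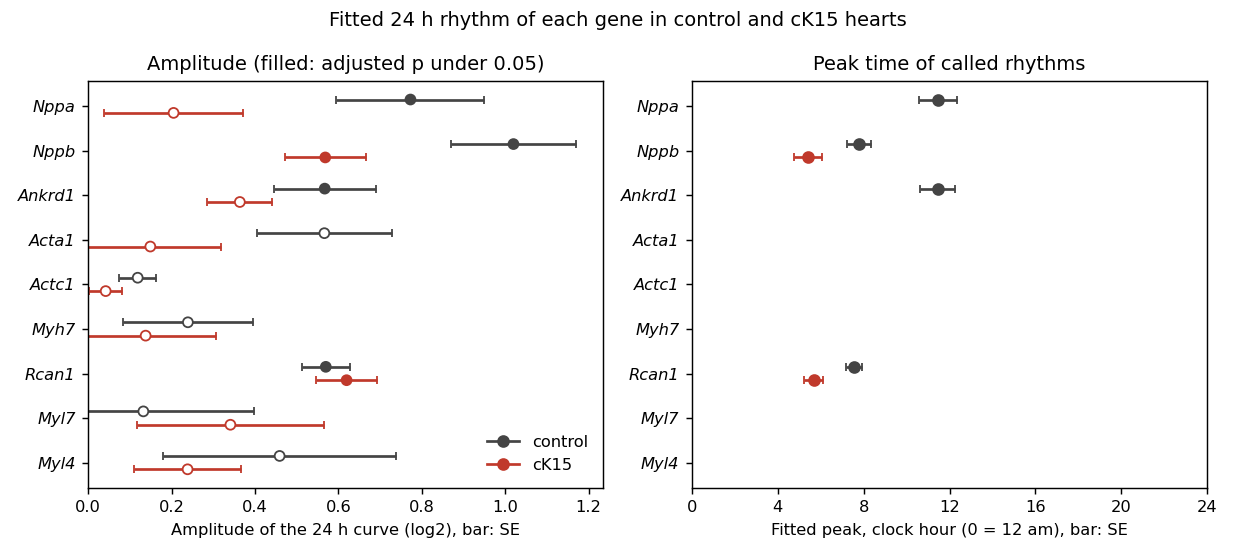
Amplitude (log2, left) and fitted peak (clock hour, right) of the 24 h curve of each gene in control (grey) and cK15 (red) hearts, with the SE as bars and filled points for an adjusted p under 0.05. Nppb and Rcan1 are called in both genotypes with peaks at 7.79 and 7.54 in control and 5.42 and 5.67 in cK15, while Nppa and Ankrd1 are called in control only and the difference between genotypes was not called for any gene.

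The 2 natriuretic peptide genes also moved together from library to library once group means were removed. Over 36 libraries Pearson's r of their deviations was 0.66 (p = 0.00098 by permutation within groups; 0.0353 adjusted over the 36 pairs of the 9 genes), and Spearman's rho was 0.64 (permutation p = 0.00047; 0.0169 adjusted). Without the 2 libraries farthest from the median of Nppa, r was 0.56. Within the 24 libraries r was 0.80 (permutation p = 0.0246; 0.444 adjusted), and within the 12 it was 0.49. No other pair passed: the next, Nppa with Acta1, had an r of 0.61 (permutation p = 0.00298; 0.0536 adjusted).

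**Figure D4:**
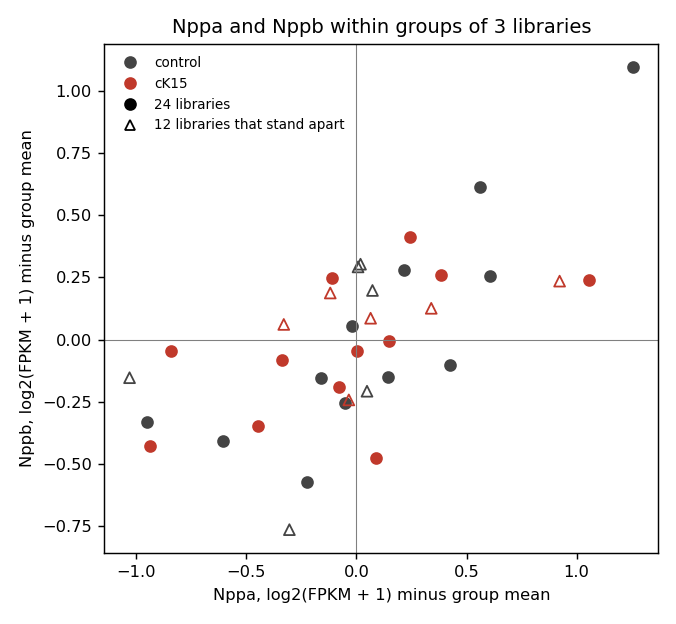
Nppb against Nppa in each library, both as log2(FPKM + 1) minus the mean of the library's group of 3, with control in grey, cK15 in red and triangles for the 12 libraries that stand apart. The points rise from lower left to upper right (r = 0.66 over 36 libraries), and a control library lies at the far upper right.

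The genes whose levels followed each member most closely over the 36 libraries were the following, as a description in which all points share the same libraries. Rcan1 was closest to the clock gene Arntl, the partner of CLOCK (r = 0.88, and 0.89 in the 24 libraries), then to the muscle ankyrin repeat gene Ankrd23 (0.87 and 0.89) and the collagen gene Col5a3 (0.83 and 0.88). Nppb was closest to Kdr, the endothelial VEGF receptor gene (0.80 and 0.77), Ankrd23 (0.80 and 0.78) and the TWEAK receptor gene Tnfrsf12a (0.78 and 0.77). Nppa was closest to Pam, which encodes a peptide-amidating enzyme abundant in atrial granules (0.80 and 0.80), then to Hn1 (0.75 and 0.75) and Dpysl3 (0.70 and 0.69). For the actins, Acta1 was closest to smooth muscle actin Acta2 (0.74 and 0.84), Pfkp and Polr3a. Actc1 was closest to Rassf3 (0.78 and 0.75), Ap1b1 and Srf, the serum response factor gene (0.76 and 0.79). Ankrd1 was closest to Lsp1 (0.75 and 0.70), Dpysl3 and Tnip1, and Myh7 to Setd2 (0.74 and 0.65), Drosha and Pstpip2. The low genes had weaker neighbours, Myl7 with Inpp5d at 0.61 and Myl4 with Tacc3 at 0.61.

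Genes of the surrounding pathways were counted in the averaged comparison, beside 4.06% higher and 7.19% lower over all genes. Of 13 genes for processing, receptors and cyclic GMP signalling of natriuretic peptides, 12 were tested, 4 rose and 1 fell (median log2 difference 0.036). Those that rose were Ide, a protease that degrades natriuretic peptides (39.4 ± 4.04 FPKM in control and 64.8 ± 15.6 in cK15; log2 0.67; limma adjusted p = 3.92e-06), Corin, the protease that activates pro-atrial natriuretic peptide (0.14; limma adjusted p = 0.0355), the proprotein convertase gene Furin (0.19; limma adjusted p = 0.0448), and the cyclic GMP kinase gene Prkg1 (0.22; limma adjusted p = 0.0431). Mme, which encodes neprilysin, another peptide-degrading protease, fell by 0.47 on the log2 scale, from 5.74 ± 1.60 to 3.81 ± 0.814 FPKM (limma adjusted p = 9.05e-05). Of these 12, 1 was rhythmic in control, the cyclic GMP phosphodiesterase gene Pde2a (amplitude 0.19; limma adjusted p = 0.0169), beside 2.8% of all genes, and none was in cK15.

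Among 15 calcineurin and NFAT genes, 12 were tested, none rose and 1 fell (median -0.027). It was Lmcd1, which encodes a LIM protein linked to calcineurin signalling (log2 -0.33; limma adjusted p = 0.0022). Lmcd1 was also the 1 gene of the 12 called rhythmic in cK15 (amplitude 0.34, limma adjusted p = 0.0322), and none was in control. Of 11 adult sarcomere genes, 1 rose (median 0.075), the myosin binding protein gene Mybpc3, at 2152 ± 226 FPKM in cK15 and 1824 ± 167 in control (0.24; limma adjusted p = 0.00196). Of 17 other fetal, stretch and hypertrophy genes, 10 were tested (median 0.081). The matricellular gene Cyr61 rose (0.26; limma adjusted p = 0.0341) and Acta2 fell (-0.35; limma adjusted p = 0.0450). Both were rhythmic in control, as was Ankrd23 (amplitude 0.66; limma adjusted p = 2.35e-06), beside 2.8% of all genes. In cK15, Ankrd23 alone of these was called rhythmic (amplitude 0.49, limma adjusted p = 0.000143), beside 1.08% of all genes. Of 17 transcription factor genes known to act on the 9, 14 were tested, 3 rose and none fell (median 0.15). They were the cardiac factors Tbx5 (0.28; limma adjusted p = 0.00506) and Nkx2-5 (0.34; limma adjusted p = 0.0150), and Myocd, the coactivator of serum response factor (0.20; limma adjusted p = 0.00801). Beside these counts, markers of some other cells differed by genotype. Of 7 fibroblast markers 6 fell (summed FPKM 1316 to 1609 in cK15 and 1564 to 1928 in control), and so did 6 of 7 macrophage markers (142 to 226 and 161 to 249). None of the 7 endothelial or 4 tested blood markers was called. Of 4 smooth muscle markers 1 fell, Acta2, and of 8 ventricular cardiomyocyte markers 1 rose, Ryr2. The part of these cells in the values of the 9 genes was not tested.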

How the data were processed

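The authors deposited FPKM per gene symbol and library in a table for each genotype, with 36 libraries of ribosome-depleted, stranded total RNA from heart apex, per the labels' protocols. The submitters' processing notes name GSNAP, HTSeq and the build mm10, with no versions or roles. Neither the annotation nor the program behind the FPKM is stated there or in the labels. Because each library is scaled to its own total, a few abundant genes can lower all others. The tables held 27 symbols turned into dates and 2 repeated symbols. No replicates were pooled, and every column was used. Midnight was taken for 12 am and noon for 12 pm, and the hour of lights-on is not stated.

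Values were taken as log2(FPKM + 1), a scale that understates the change of low genes, and tested with limma 3.58.1 in R 4.3.3. The 10600 genes tested had a mean FPKM of at least 1, or were Klf15. All 9 genes passed that filter, which used the mean over all libraries. Group means of 12 groups gave the averaged and the single-time differences, and a cosine and sine of 24 h gave the rhythm within each genotype and its difference between genotypes, with variances moderated along mean level and robustly. Benjamini-Hochberg adjustment ran over all 10600 genes, and a call had an adjusted p under 0.05. The 4 within-library ratios and the 36 pairs of genes were tested by 100000 permutations within times or groups (Python 3.11.15, numpy 2.4.6, scipy 1.17.1). Ratios with replicates 3 and 4 paired across genotypes were tested by flipping the signs of the pair differences in all ways, without the other replicates. The model code was tested on simulated data.

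The alternatives were a pseudocount of 0.1, no filter or a mean FPKM of at least 5, median-ratio and quantile scaling, replicate blocks, a term for library set, each set alone, and leaving out each library or replicate series. Deviations of libraries with the same number, at the same time, correlated across genotypes at 0.157 to 0.508 in 12 of 12 pairs (median 0.245). Those pairs also share a library set. Pairs that share a set correlated about as much (median 0.219, over 0.1 in 268 of 330), so number and set cannot be told apart. Libraries of the same number and genotype at different times correlated at -0.322 to 0.554 (median 0.282, over 0.1 in 70 of 90 pairs). The limma tests without a block take all libraries as independent. Numbers 3 and 4 occur in both genotypes and were taken to pair them from this check of the data. The labels do not say what a number marks. Number 1 occurs in cK15 only and number 2 in control only. With the fixed replicate block the averaged genotype difference therefore rests on numbers 3 and 4. The 9 genes, the gene lists and the tests were chosen with earlier results of these data known. All 9 genes are described, with up to 4 averaged and 3 rhythmic calls of each list, and 3 nearest genes of each member. Furin, the marker gene Myl1 and the cK15 rhythms of Ankrd23 and Lmcd1 were named after their values were seen.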

Additional observations from a re-analysis of the deposited data

How the results depend on the processing

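Under 52 alternatives the 9 genes gave 4599 results. Of these, 4442 stayed on their side of the threshold, 109 lost a call, 48 gained one and 0 reversed a call, while 108 that were never called turned sign. Most of the 4599 had no call to lose: the main calls were 2 averaged, 1 at 8 pm, 4 rhythms in control and 2 in cK15. Rhythm amplitudes have no sign to reverse, and a single-time difference keeps its value when a library of another time is left out. The 4442 are therefore no measure of how firm the calls were. Rcan1 kept its rhythm in both genotypes throughout. The averaged call of Myl7 was lost in 28 of 52 alternatives and that of Actc1 in 5, and the averaged differences of Ankrd1, Nppb and Nppa gained a call in 15, 13 and 8. The rhythm of Nppa in control was lost in 23 of 51, that of Ankrd1 in 10 and that of Nppb in 2, and Nppb at 8 pm in 37. The rhythm of Nppb in cK15 was lost in 4, with no filter on low values, in the 24 libraries, and without replicate 1 or 3 of cK15 (limma adjusted p = 0.0623, 0.183, 0.239 and 0.0828). Over their alternatives the limma adjusted p ran from 0.0188 to 0.481 for the averaged Myl7, 0.000834 to 0.399 for the averaged Actc1 and 0.000195 to 0.623 for Nppb at 8 pm. The cause was not tested.

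Over all genes, the averaged comparison called 1192 genes, and 2169 with a term for library set or 576 in the 12 libraries alone. With that term the single-time counts were 256, 231, 218, 152, 318 and 275 from 12 am to 8 pm, against 129, 120, 113, 80, 139 and 120. Rhythmic genes numbered 297 in control and 114 in cK15, and 730 and 261 with the term, which also gave 1 gene with a rhythm difference, while the 24 libraries alone gave 2. With the replicate block as a fixed term the rhythmic counts were 470 and 202, and with replicate series as a random block they were 475 and 212, with 348 averaged calls. The block ended the calls of Myl7 and of Nppb at 8 pm given above, and the random block also that of Actc1 (limma adjusted p = 0.261). The 12 libraries alone were run for the averaged difference and the ratios only.

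Leaving out replicates gave 763 to 1269 averaged calls, 87 to 140 at 12 am, 78 to 119 at 4 am, 67 to 114 at 8 am, 51 to 79 at 12 pm, 73 to 115 at 4 pm and 66 to 108 at 8 pm. Rhythmic genes then numbered 86 to 297 in control and 33 to 127 in cK15, with 0 to 1 differing. The log2 ratio of Acta1 to Actc1 differed between genotypes by -0.55 in the 24 libraries (adjusted permutation p = 0.0339) and by 0.33 in the 12. That of Myl7 to Myl2 differed by -0.68 in the 24 (adjusted permutation p = 0.105), by -2.30 in the 12 and by -1.26 with the replicate block (0.101). The 12 include the control library with Myl7 at 43.0. Without 1 replicate series the ratio differences ran from -0.43 to -0.15 for Acta1, -0.22 to 0.092 for Myh7, -0.27 to 0.10 for Myl4 and -1.36 to -1.13 for Myl7. Depth is unknown, so no counting error can be given for any of the 9 genes.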

Other observations

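The 3 control libraries of 8 pm differed from each other in different genes of the set, and the values, chosen after they were seen, are given with no test. Replicate 3 had Myh7 at 83.8 FPKM, the highest of the 36 libraries, and also Nppa at 185 and Nppb at 270, above the other control libraries of that time. Replicate 4 had Myl7 at 43.0 and Myl4 at 27.2, both the highest of the 36, with Nppb at 73.8, its lowest. Replicate 2 had Nppa at 39.3, with Nppb at 99.9, Myl7 at 3.90 and Myl4 at 1.84. In cK15, replicate 4 held the highest Myh7 of its group at 8 am, 12 pm and 4 pm, with 40.8, 43.1 and 46.2 FPKM, and the other libraries of these groups lay between 12.8 and 21.97. It was below replicate 3 at 12 am (28.4 and 33.6) and 4 am (35.5 and 41.2), and the lowest of its group at 8 pm (17.5).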
